A study of Mus musculus with 6 samples.

Results

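Cyclic nucleotide phosphodiesterases are the enzymes that break down cAMP and cGMP, and 10 of their genes were examined here: Pde3a, Pde3b, Pde4a, Pde4b, Pde4d, Pde7a, Pde7b, Pde8a, Pde8b and Pde10a. They were chosen by symbol. Of the 10 genes, 9 had a row among the 29493 genes of the count table, and Pde3a was not analysed here. The cells were HT22, a neuronal line derived from mouse hippocampus, in a stable line labelled HT22-TR/TO-V5Klf13-1 that carries a V5-tagged KLF13 transgene under the tet repressor. Both groups carried the transgene: 3 libraries came from cells given doxycycline (Dox) at 1 µg/ml for 8 hours and 3 from cells given vehicle. KLF13, a Krüppel-like factor, binds DNA through zinc fingers and regulates transcription, and doxycycline relieves the repressor so that the transgene is expressed. The series asks how KLF13 acts in hippocampal neurons, and the comparison of Dox with vehicle is its only contrast. All libraries came from 1 engineered line. Cells lacking the transgene were not given the drug, so effects of KLF13 and of doxycycline cannot be told apart. Whether the samples within a group were separate cultures is not stated in the labels, and the p-values then reflect only the spread among these 6 samples, possibly a technical one.

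Adenylyl cyclases make cAMP, protein kinase A and the EPAC exchange factors respond to it, and phosphodiesterases end the signal and keep it local. The families differ in substrate and control: PDE3 enzymes hydrolyse both cyclic nucleotides, and cGMP inhibits their hydrolysis of cAMP. PDE4, PDE7 and PDE8 enzymes are specific for cAMP, and PDE10A hydrolyses both cyclic nucleotides. PDE4 enzymes are the targets of rolipram, and PDE10A is best known from the medium spiny neurons of the striatum.

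Total counts per library ranged from 38566798 to 52930384. Klf13 was at 36.1 to 39.1 CPM (counts scaled to the effective size of the library) with vehicle and at 183.6 to 204.6 CPM with Dox. Its counts cannot separate the transgene from the endogenous gene. Neuronal identity rested on few markers: of 12 neuron markers 5 had enough counts to test. The neuronal genes Rbfox3, Snap25, Nefl, Stmn2 and Dcx had no row in the count table under these symbols. Of the 5 neuron markers that were tested 4 fell and 0 rose with Dox. The summed level of the list was 95.6 to 96.7 CPM with vehicle and 32.2 to 33.4 CPM with Dox. Fibroblast markers, led in level by the collagen gene Col1a2, summed to 13308 to 14082 CPM with vehicle and 10674 to 11325 CPM with Dox. Of 10 tested 8 fell and 0 rose, and over all tested genes 28.8% fell and 25.9% rose. Markers of other brain and vessel cells were low apart from Slc1a3, Gja1 and Tmem119; the summed levels ran from 1.66 to 2.25 CPM with vehicle and 1.03 to 1.17 CPM with Dox for oligodendrocytes, from 2.93 to 3.34 and 3.76 to 4.84 CPM for endothelium, from 29.9 to 32.1 and 19.9 to 20.8 CPM for microglia, and from 73.5 to 203.4 and 56.1 to 219.3 CPM for astrocytes. The part of these shifts in the phosphodiesterase values was not tested. In bulk RNA, fewer cells with a transcript and less of it in each cell cannot be told apart.

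The members that moved did so in opposite directions. With Dox, Pde10a fell 13.9-fold and Pde7a fell 1.31-fold, while Pde4b rose 1.70-fold. Of the 9 genes in the table, 7 had enough counts to test, and of these 2 fell, 1 rose and 4 did not pass (edgeR quasi-likelihood test, adjusted p under 0.05 after Benjamini-Hochberg adjustment over all 18067 genes tested). Over all tested genes 54.7% were called, with 28.8% lower and 25.9% higher, so 3 of 7 is close to the background share. The median log2 fold change of the 7 was 0.057, against 0.018 for all tested genes.

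The bases upstream of annotated transcription starts are shown for the called genes that have an entry, Pde10a and Pde4b, and for Pde4a, which did not pass the test, to put opposite outcomes side by side. They come from the RefSeq table of GRCm38.p6 starts, on the plus strand, and bases inside exons annotated by GENCODE M21 were left out. The first listed window of Pde4a lies directly before its annotated gene, which begins at 21165714. Those of Pde10a and Pde4b lie inside their annotated genes, which begin at 8525372 and 102087543, so the windows are not of a like kind. Capitals mark the GC box GGGCGG and the sequence CACCC, each on either strand, which are the kinds of sequence that Krüppel-like factors are known to bind.
Pde10a, first listed start, chr17:8801495-8801692: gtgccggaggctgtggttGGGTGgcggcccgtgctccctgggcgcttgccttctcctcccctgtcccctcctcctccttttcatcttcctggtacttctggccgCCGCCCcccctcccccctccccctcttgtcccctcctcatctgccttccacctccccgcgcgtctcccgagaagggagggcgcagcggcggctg
Pde10a, second listed start, chr17:8849735-8849984: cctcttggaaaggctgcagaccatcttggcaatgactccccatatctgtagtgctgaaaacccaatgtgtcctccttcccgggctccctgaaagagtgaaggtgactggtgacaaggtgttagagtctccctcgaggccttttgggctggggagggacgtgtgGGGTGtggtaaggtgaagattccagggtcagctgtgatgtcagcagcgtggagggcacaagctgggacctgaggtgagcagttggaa
Pde4b, first listed start, chr4:102421305-102421517: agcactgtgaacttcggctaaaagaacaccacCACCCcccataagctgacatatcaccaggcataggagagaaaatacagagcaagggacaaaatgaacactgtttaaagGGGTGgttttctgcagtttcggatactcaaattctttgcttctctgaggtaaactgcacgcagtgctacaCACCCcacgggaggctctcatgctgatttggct
Pde4a, first listed start, chr9:21165464-21165713: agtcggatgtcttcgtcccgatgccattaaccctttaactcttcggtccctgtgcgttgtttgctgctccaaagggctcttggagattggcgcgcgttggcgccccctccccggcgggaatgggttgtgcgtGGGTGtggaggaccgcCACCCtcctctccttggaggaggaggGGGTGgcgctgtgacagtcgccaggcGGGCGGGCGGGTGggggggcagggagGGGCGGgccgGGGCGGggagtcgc

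In the 250 bases before the first Pde10a start lay 1 GC box and 1 CACCC, and before the second start 0 GC boxes and 1 CACCC. The first listed window of Pde4b held 0 and 3, and its other windows held 0 GC boxes and 1, 0 and 1 CACCC. The first listed window of Pde4a, which did not pass the test, held 4 and 4, with 2 bases shared between matches of the 2 kinds, and its other windows held 1 and 2, and 0 and 1. Across all 17 listed starts of the 7 members with an entry, 6 windows held a GC box, against 32.7% of 32851 mouse windows of this length, and 13 held CACCC, against 52% of them. Several of the 5 Pde8b windows overlap and share matches. The cAMP response element TGACGTCA was in 0 of the 17, and in 1.55% of all windows. A match of these letters is a description, and gene counts do not show which start was in use.

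The transcript of PDE10A, which hydrolyses both cAMP and cGMP, was low in every Dox library. Pde10a, on the plus strand of chromosome 17 from 8525372 to 8986648 (GRCm38, GENCODE M21), had 161, 208 and 226 counts in vehicle replicates 1, 2 and 3, and 11, 20 and 14 counts in the Dox replicates. Scaled to library size these were 4.27, 4.995 and 4.36 CPM with vehicle and 0.258, 0.405 and 0.301 CPM with Dox. Every Dox library lay far below every vehicle library, and the spread within a group was small against the gap. The mean went from 4.54 ± 0.396 CPM in vehicle libraries to 0.322 ± 0.0756 CPM in Dox libraries (SD, n = 3 per group), a log2 fold change of -3.80 ± 0.16 (SE, 95% interval -4.19 to -3.40, edgeR adjusted p = 6.7e-06). Only 20 of the 18067 tested genes had a log2 fold change this low or lower, Pde10a included. The gene shares no stretch of 50 or more exonic bases with another annotated gene on either strand.

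PDE7A, a cAMP-specific enzyme, had a smaller fall. Pde7a, on the minus strand of chromosome 3 from 19223108 to 19311322, was at 45.2, 46.3 and 45.1 CPM in the vehicle replicates and at 32.1, 35.4 and 36.7 CPM in the Dox replicates. The groups did not overlap, and the Dox libraries were more spread than the vehicle libraries. The change from 45.5 ± 0.683 to 34.7 ± 2.36 CPM (SD, n = 3 each) was a log2 fold change of -0.39 ± 0.055 (SE, 95% interval -0.52 to -0.26, edgeR adjusted p = 0.0011). It rested on 1707 to 2336 counts a library with vehicle and 1367 to 1745 with Dox. Its relative Pde7b had 0, 1 and 2 counts with vehicle and 0, 2 and 0 with Dox, under the limit of 3 counts that a count of 0 allows, and was too low to test.

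Among the PDE4 genes, which encode cAMP-specific enzymes, 1 of 3 changed. Pde4b, on the plus strand of chromosome 4 from 102087543 to 102607259, was at 2.92, 2.59 and 2.39 CPM in the vehicle replicates and at 4.37, 4.68 and 4.34 CPM in the Dox replicates. Each Dox library was above each vehicle library. The mean rose from 2.63 ± 0.264 to 4.46 ± 0.189 CPM (SD, n = 3 each), a log2 fold change of 0.76 ± 0.090 (SE, 95% interval 0.55 to 0.98, edgeR adjusted p = 4.7e-04).

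Pde4a, on the plus strand of chromosome 9 from 21165714 to 21213248, was at 35.0, 36.9 and 34.1 CPM with vehicle and 37.7, 36.6 and 36.0 CPM with Dox. The groups overlapped, and the log2 fold change of 0.057 had a 95% interval of -0.047 to 0.16 (edgeR adjusted p = 0.31), so a change larger than these bounds lay outside the interval. With upper-quartile scaling, which moved the median log2 fold change of all tested genes from 0.018 to 0.11, the value was 0.15 and passed the test (edgeR adjusted p = 0.017). Pde4d, which spans chromosome 13 from 108449948 to 109953461, was at 4.67, 3.19 and 2.66 CPM with vehicle and 4.13, 5.75 and 3.72 CPM with Dox. Vehicle replicate 1 and Dox replicate 2 stood above the other libraries of their groups, and the groups overlapped. Its log2 fold change of 0.38 had a wide 95% interval, from -0.23 to 0.99 (edgeR adjusted p = 0.25), which includes no change and the estimate for Pde4b. Single libraries moved this value: it was 0.63 without vehicle replicate 1 (edgeR adjusted p = 0.060), 0.21 without vehicle replicate 3 (edgeR adjusted p = 0.54) and 0.17 without Dox replicate 2 (edgeR adjusted p = 0.61).

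The PDE8 genes, which encode high-affinity cAMP-specific enzymes, were near the limit of the counts. Pde8a had 13, 10 and 23 counts with vehicle and 12, 19 and 9 with Dox, and Pde8b had 10, 11 and 16 with vehicle and 13, 20 and 18 with Dox. Both pairs of groups overlapped in CPM, and neither gene passed. The log2 fold change was -0.27 for Pde8a (95% interval -1.10 to 0.57, edgeR adjusted p = 0.55) and 0.38 for Pde8b (95% interval -0.29 to 1.05, edgeR adjusted p = 0.29). Leaving out 1 library at a time moved the value between -0.54 and -0.016 for Pde8a and between 0.30 and 0.50 for Pde8b, and neither passed in any of these fits. Pde8b also shares 447 exonic bases with the antisense gene Gm48420, and whether counting used the strand is not given. Pde3b, the remaining PDE3 gene, had 0, 0 and 3 counts with vehicle and 5, 4 and 4 with Dox, so its groups did not overlap but its counts were too low to test. With no filter on low counts it did not pass either (edgeR adjusted p = 0.21). In all, the groups of 3 of the 7 tested members did not overlap, against 64% of all tested genes.

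**Figure D1:**
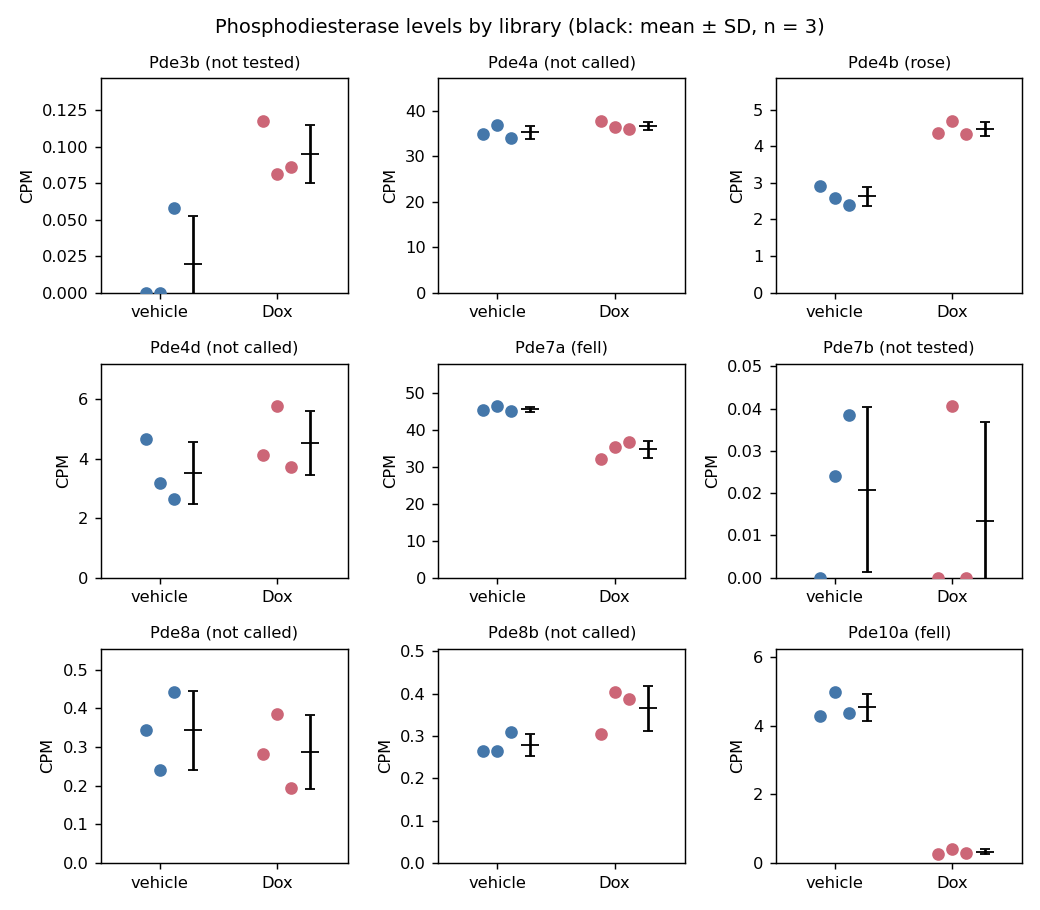
Level of each of the 9 genes in CPM (y axis from 0, a scale for each gene) in the vehicle (blue) and Dox (red) libraries; black bars are the mean ± SD of 3 libraries, ended at 0 where they would pass it. The Dox libraries of Pde10a lie at 0.258 to 0.405 CPM against 4.27 to 4.995 CPM with vehicle, those of Pde4b lie above and those of Pde7a below their vehicle libraries, and the points of Pde4a, Pde4d, Pde7b, Pde8a and Pde8b overlap between groups.

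The 3 called members kept their direction and stayed past the threshold in each of the 6 fits that left out 1 library. The authors' deposited table, made from the same libraries, marks the same 3 members as called, with log2 fold changes of -3.30 for Pde10a, -0.39 for Pde7a and 0.73 for Pde4b. Its calls rest on a stricter threshold, as some genes with an adjusted p under 0.05 there were left unmarked. Its value for Pde10a was smaller in size than the -3.80 found here.

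**Figure D2:**
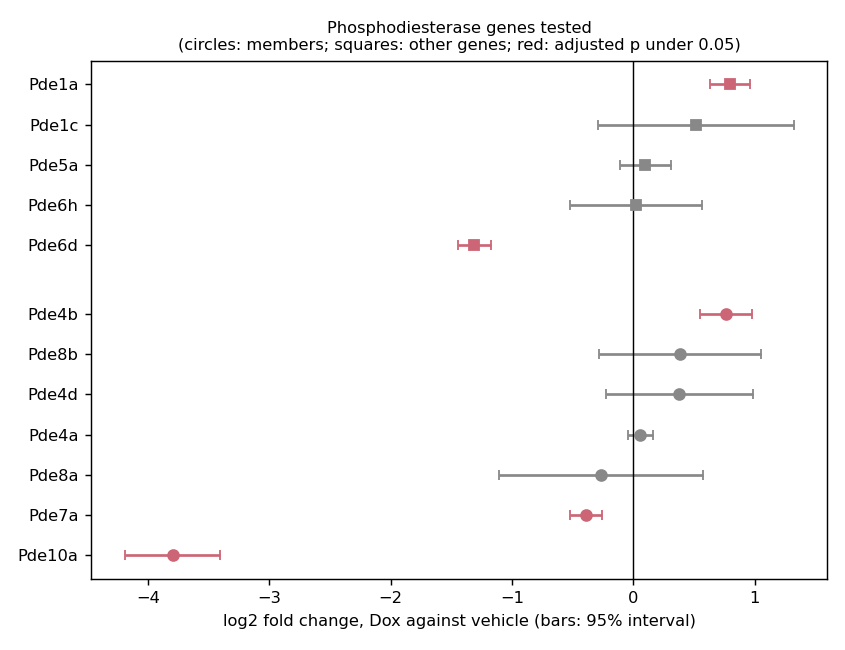
Log2 fold change of Dox against vehicle (x axis) with its 95% interval for the 7 tested members (circles) and 5 other phosphodiesterase genes (squares); red marks an adjusted p under 0.05. Pde10a lies at -3.80, apart from all others, and the intervals of Pde8a, Pde8b and Pde4d are wide and include 0.

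Divided by the length of the longest annotated coding transcript, so that genes can be set against each other, the members fell into high, middle and low levels in the vehicle libraries. Pde4a was at 7.59 ± 0.304 and Pde7a at 7.23 ± 0.108 CPM per kb (SD, n = 3 each). The ranges of these highest members, 7.32 to 7.92 and 7.15 to 7.36 CPM per kb, overlapped. Pde4d at 0.834 ± 0.247, Pde4b at 0.612 ± 0.0614 and Pde10a at 0.584 ± 0.0510 CPM per kb (SD, n = 3 each) formed the middle, and their ranges overlapped as well. Pde8a and Pde8b were at 0.0902 ± 0.0268 and 0.0659 ± 0.0060 CPM per kb (SD, n = 3 each), also with overlapping ranges.

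With Dox the order changed in level per length. Pde4a was at 7.90 ± 0.193 CPM per kb and stood above Pde7a at 5.51 ± 0.374 in every library. Pde4d at 1.08 ± 0.256 and Pde4b at 1.04 ± 0.0438 CPM per kb could not be ordered. Pde10a, at 0.0414 ± 0.0097 CPM per kb (SD, n = 3 each), was now below Pde8b in every library, and below all other tested members in the mean. The order of neighbours depends on the length used: over all annotated exonic bases the vehicle level of Pde7a was 5.88 and that of Pde4a 4.61 CPM per kb, and Pde10a, at 0.353, was above Pde4d at 0.292 and Pde4b at 0.249. Which isoforms these cells made is not known from gene counts.

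**Figure D3:**
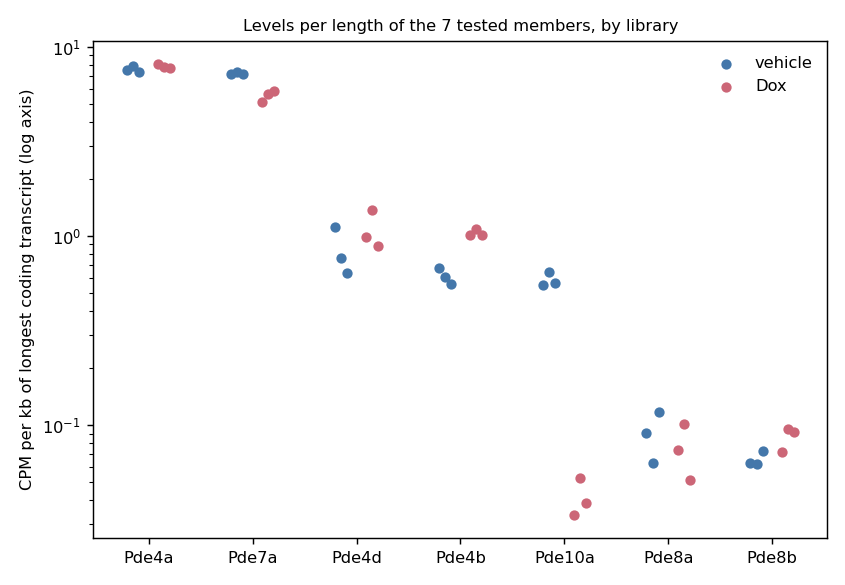
Level per length (y axis, CPM per kb of the longest coding transcript, log axis) of the 7 tested members in each vehicle (blue) and Dox (red) library, ordered by the vehicle mean. Pde4a and Pde7a lie highest in both groups, and Pde10a drops from 0.549 to 0.643 with vehicle to 0.0333 to 0.0522 with Dox.

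Summed over the 9 genes, the level was 17.2, 17.4 and 16.4 CPM per kb in the vehicle replicates and 15.4, 16.2 and 15.6 CPM per kb in the Dox replicates. Each Dox sum lay below each vehicle sum, by a small margin and with no test. Pde4a and Pde7a together made up 85.5 to 88.1% of it with vehicle and 83.2 to 86.7% with Dox. Within that sum the share of Pde4a was 43.8 to 45.5% with vehicle and 48.5 to 52.6% with Dox, and the share of Pde7a 41.8 to 43.5% and 33.1 to 37.3%. Pde4b made up 3.38 to 3.94% with vehicle and 6.45 to 6.71% with Dox. Pde10a went the other way, from 3.19 to 3.69% with vehicle to 0.22 to 0.32% with Dox. Pde10a was thus a small part of the summed transcript level of these genes in both groups. Its fall, from a mean of 0.584 to 0.0414 CPM per kb, was smaller than that of Pde7a, from 7.23 to 5.51 CPM per kb. The means of Pde3b, Pde4a, Pde4b, Pde4d and Pde8b were higher with Dox, so the drop of the sum is a net value. The sums and shares use the length of the longest coding transcript, and the order of Pde4a and Pde7a depends on the length used.

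Ratios between members inside a library need no scaling between libraries. Counts of Pde10a were 12.2 to 13.6% of those of Pde4a in the vehicle libraries and 0.685 to 1.11% in the Dox libraries. Counts of Pde4b were 7.02 to 8.33% of those of Pde4a with vehicle and 11.6 to 12.8% with Dox. Neither pair of ranges overlapped, and these gaps do not depend on the scaling.

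Pde7a had 126 to 132% of the counts of Pde4a with vehicle and 85.1 to 102% with Dox, also without overlap. Pde4d had 7.81 to 13.3% with vehicle and 10.3 to 15.7% with Dox, and there the groups overlapped. The log2 ratio to Pde4a changed by -3.90 for Pde10a, -0.45 for Pde7a, 0.71 for Pde4b and 0.33 for Pde4d. An exact two-sided permutation test over the 6 libraries gave p = 0.1 for the first 3, which is the smallest it can give with 3 against 3, and p = 0.4 for Pde4d (0.13 and 0.4 adjusted over the 4 ratios). These ratios compare unequal changes and do not show that Pde4a itself was constant.

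**Figure D4:**
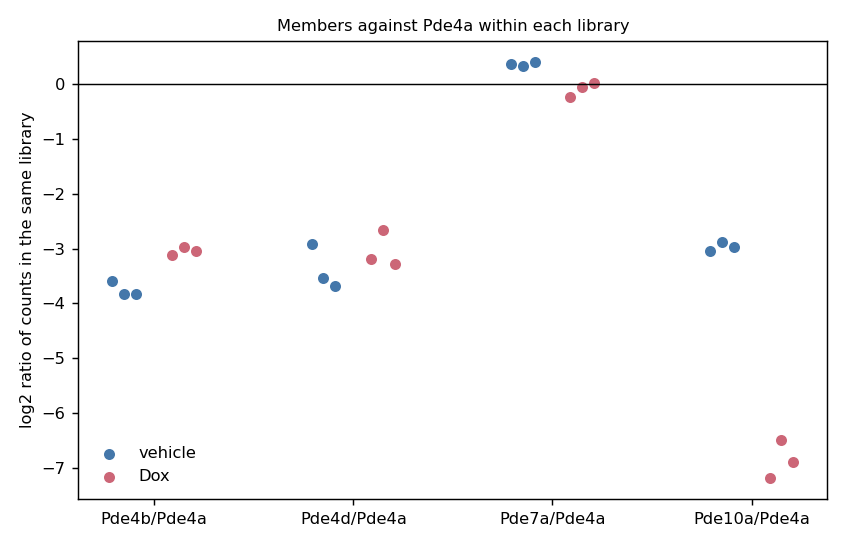
Log2 ratio of the counts of 4 members to those of Pde4a in the same library (y axis) for the vehicle (blue) and Dox (red) libraries. Pde10a/Pde4a moves down by 3.90, Pde7a/Pde4a lies above the line at 0 with vehicle and around it with Dox, and only Pde4d/Pde4a overlaps between the groups.

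Of the 14 other phosphodiesterase genes listed for comparison, 5 could be tested, and 1 rose, 1 fell and 3 did not pass. Pde1a, a calmodulin-activated enzyme for both cyclic nucleotides, was at 16.0, 16.9 and 15.7 CPM with vehicle and 27.3, 30.6 and 26.6 CPM with Dox. Its rise, a log2 fold change of 0.80 ± 0.067 (SE, edgeR adjusted p = 9.9e-05), was close to that of Pde4b; the difference between these changes was not tested. Pde6d, a carrier of lipid-modified proteins that is named for its place in the photoreceptor enzyme, had vehicle libraries at 32.7 ± 1.59 CPM and Dox libraries at 13.2 ± 0.532 CPM (SD, n = 3 per group). Its fall was a log2 fold change of -1.31 ± 0.055 (SE, edgeR adjusted p = 6.4e-06). Pde5a, the cGMP-specific enzyme inhibited by sildenafil, did not pass (log2 fold change 0.099, 95% interval -0.11 to 0.31). Nor did Pde1c (0.52, 95% interval -0.29 to 1.32) or Pde6h (0.022, 95% interval -0.53 to 0.57), and Pde6h shares 136 exonic bases with Arhgdib and Pde5a 55 with 4930447N08Rik. Without 1 library the value ran from 0.026 to 0.17 for Pde5a, from 0.19 to 0.74 for Pde1c and from -0.042 to 0.13 for Pde6h, none of them past the threshold. With no filter on low counts 10 of these genes could be tested and 2 rose: Pde2a, with 0, 0 and 2 counts with vehicle and 7, 8 and 5 with Dox, then passed as well (edgeR adjusted p = 0.038). Pde2a shares 3955 exonic bases with Gm45837. The longest-transcript level of Pde1a, 3.80 ± 0.144 CPM per kb with vehicle and 6.61 ± 0.506 with Dox (SD, n = 3 each), placed it between Pde7a and Pde4d with vehicle and above Pde7a with Dox.

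Over the other lists, falls outnumbered rises. CREB genes and targets, 23 of the 51 genes tested, made up 14 of the 26 falls. Over all tested genes 28.8% fell and 25.9% rose. With the other phosphodiesterases, anchors, CREB genes and targets included and each gene counted once, 51 of 81 were tested, 10 rose, 26 fell and 15 did not pass, so 70.6% were called against 54.7% of all tested genes. Their median log2 fold change was -0.28. The lists were chosen with earlier results of these data known, and the difference in share was not tested. The share called varies with level: among all genes with a mean CPM of at least 5 it was 70.9%. The 70.6% comes from the looser filter, so these shares are not like for like. With a mean CPM of at least 5, 30 of the listed genes were called. Of 3 other phosphodiesterases then tested 1 rose and 1 fell, of 2 cyclases 0 and 1, and of 8 effectors 1 and 5. Of 3 cGMP genes 2 rose and 1 fell, and of 4 anchors 1 and 3. Of 7 CREB genes 1 rose and 6 fell, and of 9 targets 2 and 5. In the reported fit the cyclase, effector and cGMP lists gave 16 tested genes, of which 4 rose and 8 fell. Of 4 tested adenylyl cyclases 1 rose (Adcy3, 1.10 ± 0.18), 1 fell (Adcy6, -1.21 ± 0.037) and 2 did not pass; Adcy3 shares exonic sequence with Cenpo and Adcy6 with Gm29331. Of 8 cAMP effectors and inhibitors 5 fell and 1 rose. Among them the EPAC gene Rapgef3 changed by -1.92 ± 0.11 and the kinase A catalytic subunit genes Prkaca and Prkacb by -1.30 ± 0.040 and -0.73 ± 0.047 (log2 fold change ± SE), and Rapgef3 overlaps antisense genes.

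Of 4 tested genes in the cGMP list 2 rose and 2 fell. At an adjusted p under 0.01 only 1 rose, and Npr3 had an edgeR adjusted p of 0.015. The natriuretic peptide receptor gene Npr2 changed by -1.81 ± 0.053 and the cyclase subunit gene Gucy1a2 by -1.62 ± 0.32, while Npr3 and the kinase G gene Prkg2 changed by 0.20 ± 0.050 and 0.17 ± 0.030 (log2 fold change ± SE). Npr2 shares 266 exonic bases with Gm12473 and Npr3 shares 321 with Gm5144. Of 7 genes of A-kinase anchors and Pde4dip, 3 fell and 2 rose. The rises were Pde4dip and Akap5, and Akap5, named after its values were seen, passed narrowly (log2 fold change 0.66 ± 0.22 SE, edgeR adjusted p = 0.041). The count of rises in this list was 1 with DESeq2, with no filter, at an adjusted p under 0.01 and in each fit that left out 1 library other than vehicle replicate 2, and without Dox replicate 1 a further gene fell, giving 4. Pde4dip, which encodes myomegalin, a scaffold first found as a PDE4D partner and no phosphodiesterase itself, rose from 108.8 ± 3.64 CPM with vehicle to 132.4 ± 1.26 CPM with Dox (SD, n = 3 per group). The anchor genes Akap9 and Akap1 changed by -0.71 ± 0.054 and -0.35 ± 0.033 (log2 fold change ± SE), and Akap9 shares 166 exonic bases with Cyp51 and Pde4dip 54 with Mir7225.

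Of 8 CREB family and coactivator genes 6 fell, 0 rose and 2 did not pass, while over all tested genes 28.8% fell and 25.9% rose. The falls included Crtc1 at -2.68 ± 0.10, Crtc2 at -0.59 ± 0.045 and Atf1 at -0.59 ± 0.057 (log2 fold change ± SE). The family was not uniformly lower: Creb1 changed by 0.77 ± 0.28 (log2 fold change ± SE) and narrowly did not pass (edgeR adjusted p = 0.056). Creb1 was at 26.9 to 54.4 CPM with vehicle and 63.2 to 89.9 CPM with Dox, without overlap. Of 16 genes known as CREB targets 8 fell, 3 rose and 5 did not pass. Among these the nuclear receptor gene Nr4a1 changed by -1.48 ± 0.077, the neuropeptide precursor gene Vgf by -1.39 ± 0.088 and Rgs2, a regulator of G protein signalling, by 0.39 ± 0.033 (log2 fold change ± SE). With upper-quartile scaling 6 of these targets fell and 5 rose. In the CREB list 1 gene rose with upper-quartile scaling, with limma-voom, with a mean CPM of at least 5 and without vehicle replicate 3.

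**Figure D5:**
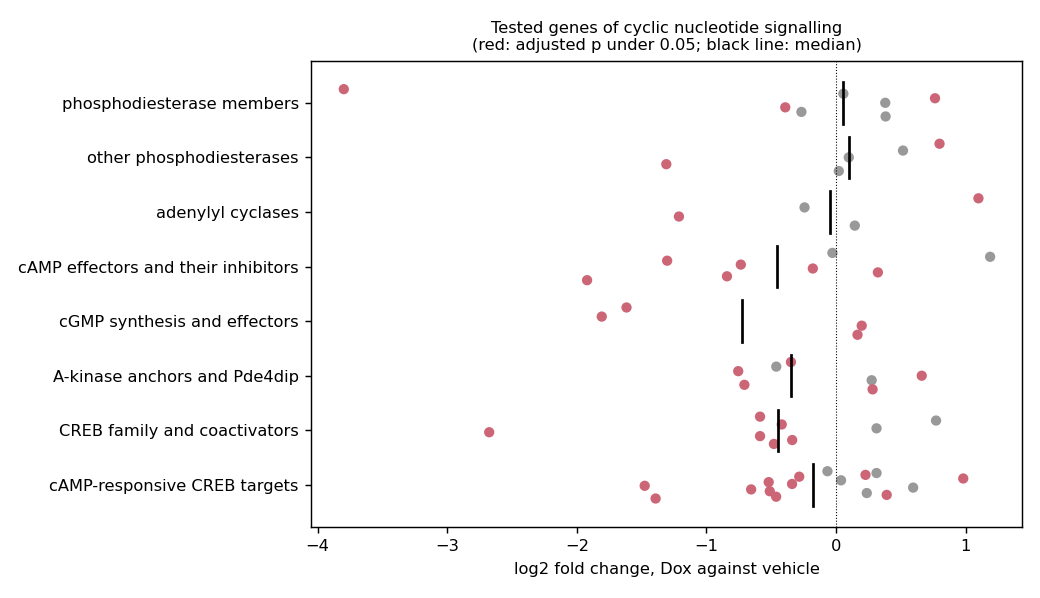
Log2 fold change of Dox against vehicle (x axis) for the tested genes of each list (rows); red marks an adjusted p under 0.05 and the black line the list's median. The 7 phosphodiesterase members have a median of 0.057 with Pde10a alone at -3.80, and the medians of the effector, cGMP, anchor and CREB lists lie below 0.

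The genes whose pattern over the 6 libraries was most like that of Pde10a, by Euclidean distance in log2 CPM centred on each gene's mean among 10627 eligible genes, were Phf13, Cand2 and Sox12, at distances of 0.35, 0.42 and 0.44. Their log2 fold changes were -3.84, -3.76 and -3.82, and Cand2 shares 53 exonic bases with Rpl32. The genes most like Pde4b, the called member that rose, were Rbbp9, Rogdi and Chek2, each at a distance between 0.11 and 0.12, with log2 fold changes of 0.68, 0.79 and 0.84, and Rogdi shares 240 exonic bases with Gm42477. With 2 conditions such a distance mostly ranks genes by the size of their change.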

How the data were processed

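RNA was measured in 6 libraries, 3 Dox and 3 vehicle, grouped by their titles. The authors deposited whole-number counts per gene symbol. They also deposited a table of Dox against vehicle. Per the file headers it holds a mean signal (normalized count), the log2 fold change and its error, a test score, and a p-value with its adjusted form. FastQC 0.11.3, HISAT2 2.1.0, StringTie 1.3.3, DESeq2 and the build GRCm38 are named, without roles, in the submitters' processing notes. The sources used here do not give the annotation, the strand setting or the handling of multi-mapping reads. All 29493 genes were filtered with filterByExpr (minimum count 10, leaving 18067), scaled by TMM and fitted with edgeR 4.0.16 (R 4.3.3, limma 3.58.1) without covariates, with quasi-likelihood tests. SE is the absolute log2 fold change divided by the root of F, widened to give the reported p where edgeR's Poisson bound raised it (Pde8b and Pde6h among the phosphodiesterases), and the common biological coefficient of variation was 12.0%. The 3 called members passed the filter in both groups. The floor of 3 counts covers counting error only.

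The members and lists were chosen with earlier results of these data known, and the within-library ratios and the scan of upstream sequence after seeing these data. The genes named were every member, every tested gene of the other phosphodiesterases, up to 3 called genes of smallest p in each pathway list (all 4 of the cGMP list), and the 3 nearest patterns of 2 members. Akap5 and Creb1 were named in addition, after their values were seen. Of the 29493 symbols, 27367 matched 1 gene of GENCODE M21 (GRCm38), and 7 members had RefSeq upstream sequence. A chi-square test of the counts of replicates gave 11.8 to 14.7 per degree of freedom, so none repeated another. The deviations of libraries with the same number, taken from the group means, correlated at 0.069, 0.052 and -0.094, so the replicate numbers were treated as unpaired. The fit was tested on simulated counts. Other settings tried were upper-quartile scaling, DESeq2 size factors, limma-voom, DESeq2 1.42.0, no filter, mean CPM of at least 5, a replicate block, adjusted p under 0.01 and leaving out each library.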

Additional observations from a re-analysis of the deposited data

How the results depend on the processing

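The number of members called was 3 in the reported fit and 3 with DESeq2 size factors, DESeq2, limma-voom, no filter, an adjusted p under 0.01 and without each library in turn. It was 4 with upper-quartile scaling, where Pde4a also passed, and 1 with a mean CPM of at least 5, a filter that leaves only Pde4a and Pde7a of the members to be tested. Over all these settings that could test them, log2 fold changes ran from -4.00 to -3.67 for Pde10a, from -0.43 to -0.30 for Pde7a and from 0.70 to 0.86 for Pde4b, each past the threshold in use. With a replicate block 3 members were called, 9699 of all genes against 9890 and 36 of the other pathway genes against 36; the block changed no call of a member or of another phosphodiesterase. Without 1 library, 8987 to 9330 of all genes and 33 to 35 of the other pathway genes were called. Upper-quartile scaling raised the share of higher genes among those called from 47.4% to 58.4%, with 6246 higher and 4457 lower. Depth limits Pde3b, Pde7b, Pde8a and Pde8b, with at most 23 counts in any library.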
